A study of Mus musculus with 2 samples.

Results

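Wls, the only gene described in depth here, is 1 of the 31053 genes counted in 2 single-cell libraries of natural killer (NK) cells sorted from mouse brain. It was chosen by its summed NK cell level in the 3xTg-AD library against the wildtype library, one of the widest gaps in the data, so that difference is given as a description with no test. The 3xTg-AD library (spelled 3XTg-AD in the labels) came from a transgenic mouse line that models Alzheimer's disease, and the wildtype library from C57BL/6 mice. Animals of both were untreated females aged 8 months, per the labels. The sources used here give neither a number of mice per library nor the strain on which the 3xTg-AD line was kept. Each group is 1 library (1 per group), so there is no replicate, and mouse line and library cannot be told apart.

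Wls (Wntless, also called Gpr177) is a membrane protein that carries lipid-modified Wnt ligands from the secretory pathway to the cell surface. The acyltransferase Porcn adds the lipid first, and the retromer complex, of which Vps35 is the core, returns empty Wls from endosomes for another round. Cells that release Wnts need Wls, whereas cells that only receive them use Frizzled and Lrp receptors and beta-catenin. NK cells kill infected and transformed cells with granzymes and perforin, carry Ly49 (Klra) and NKG2 (Klrc) receptors, and lose Cd27 and gain Klrg1 as they mature.

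Wls, ENSMUSG00000028173, lies on the plus strand of chromosome 3 at 159839672 to 159938664 (GRCm38, GENCODE M21), with 7 annotated transcripts, 2 of them protein coding, that begin at 5 distinct positions. The kit counted transcripts from their 5′ end. The sequence shown lies in front of every annotated start, so it is not itself part of what was read. RefSeq gives these 250 bases before the Wls start on GRCm38.p6 (chr3:159839400-159839649, plus strand, 5′ to 3′), with CpG dinucleotides in capitals.
Wls promoter: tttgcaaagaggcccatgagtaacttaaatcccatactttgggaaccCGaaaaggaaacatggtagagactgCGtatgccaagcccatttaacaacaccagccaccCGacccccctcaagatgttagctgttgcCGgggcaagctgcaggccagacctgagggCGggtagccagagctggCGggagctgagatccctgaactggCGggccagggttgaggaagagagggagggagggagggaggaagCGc
They held 8 CpGs and 58% G or C, against medians of 6 and 52.4% over the same stretch of 32851 mouse promoters. In the 300 bases that run 50 further into the transcript, neither strand held CTTTGAT or CTTTGTT (TCF/LEF forms), TCACAC (a T-box half-site), CCGGAA (ETS) or TGTGGT (RUNX). Of all promoters, 3.73%, 5.85%, 14.5%, 14.9% and 16.8% held them, in that order, and no match says only that these letters are not in this window.

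The 3xTg-AD library held 1695 barcodes and 5468455 unique molecular identifiers (UMIs, 1 per captured transcript), and the wildtype library 1709 barcodes and 5559995 UMIs. After filtering, 1518 of 1663 kept barcodes were NK cells in the 3xTg-AD library and 1482 of 1649 in the wildtype library, with median depths of 2783 and 2866 UMIs. An NK cell had at least 3 UMIs of the NK genes Ncr1, Klrb1c, Klre1, Klrk1, Eomes and Prf1 and passed no gate for another type. All 11 NK markers were found in the NK cells of both libraries, while Cd4, Cd8b1, Cd5 and Cd6 were at 0 in both. Cd3e had 0 UMIs in the 3xTg-AD NK cells and 1 in the wildtype NK cells, and Cd3d 31 and 36. The whole list of 8 T cell genes summed to 197 CPM in 3xTg-AD and 171 CPM in wildtype NK cells, with a UMI in 42.2% and 38.7% of them, and its part in the Wls values was not tested. The median ribosomal protein share was 15.7% in 3xTg-AD and 17.7% in wildtype NK cells, and the mitochondrial share 1.20% and 1.42%. The libraries shared 1 barcode. Of NK cells, 83 in the 3xTg-AD library and 114 in the wildtype library were too shallow to be thinned to 1400 UMIs, the common depth at which shares of cells were compared.

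NK cells of the 3xTg-AD library held little Wls. They had 335 Wls UMIs, or 72.3 CPM (UMIs scaled to a total of 1000000, 95% interval 64.7 to 80.4), against 2234 UMIs and 484 CPM (464 to 504) in wildtype NK cells. The ratio of 3xTg-AD over wildtype was 0.149 (0.133 to 0.168), the 6th lowest of 7209 genes with at least 100 UMIs. A fold of 1.5 or more separated 5.99% of those genes, 257 upward and 175 downward in the 3xTg-AD cells. Genes in general did not share the gap, since the median log2 ratio of the 7209 genes was 0.06. Its level stood at percentile 70.4 of these genes in the 3xTg-AD library and at percentile 96.2 in the wildtype library. All intervals cover counting error only and leave out variation between cells, mice and preparations.

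The share of cells with a Wls UMI also differed at equal depth. It is drawn from the same UMIs by which Wls was chosen, so it describes that gap and is no further support for it. After thinning, 10.6% (9.05 to 12.3) of 1435 NK cells in the 3xTg-AD library had a Wls UMI, against 44.1% (41.4 to 46.8) of 1368 in the wildtype library. Without thinning the shares were 19.6% and 64.1%. Over 40 further random thinnings the share had a median of 9.83% (8.92 to 11.2) in 3xTg-AD and 45.2% (43.5 to 47.6) in wildtype NK cells, and these ranges show only what the draw of UMIs adds.

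**Figure D1:**
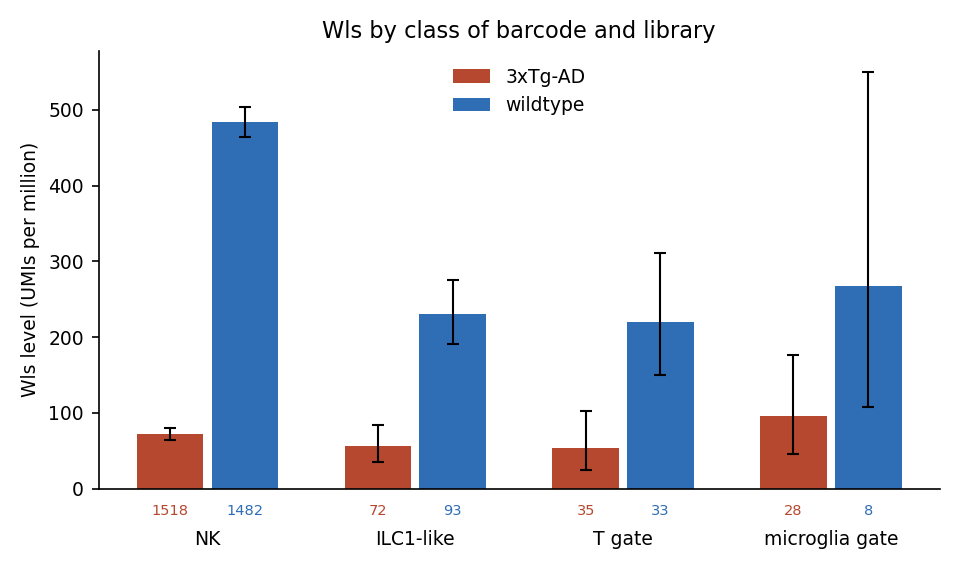
Wls level in CPM (linear axis) in NK cells, cells of the ILC1-like rule, and barcodes past the T cell or microglia gate, for the 3xTg-AD library (left bar of each pair) and the wildtype library, with the number of barcodes under each bar. Error bars are exact 95% Poisson intervals. In each class the 3xTg-AD bar is lower, at 72.3 against 484 in NK cells, while the intervals of the 28 and 8 microglia-gated barcodes overlap.

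Wls UMIs were spread over 3xTg-AD NK cells much as single draws at 1 common rate would be. Among the thinned cells of the 3xTg-AD library, 1283 had 0, 146 had 1 and 6 had 2 Wls UMIs, against 1285, 142 and 7.79 cells for a Poisson distribution of the same mean. The variance over the mean was 0.967, and 18.9% of 853 genes of like mean lay lower.

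Wildtype NK cells were less alike than that. There, 765 cells had 0, 348 had 1, 177 had 2, 57 had 3, 11 had 4, 7 had 5 and 3 had 6 or more Wls UMIs, where a Poisson distribution of the same mean gives 673, 477, 169 and 40.1 cells at 0 to 3. Cells with 0 and cells with at least 3 were therefore both more frequent, and cells with 1 less so. The variance over the mean was 1.39, above 94.6% of 112 genes of like mean, whose median was 1.03. For comparison within the wildtype library, it was 1.66 for Klra1, a receptor found on a subset of NK cells, and 1.42 for Ncr1, found on nearly all. The mean differs between the libraries, and at the low 3xTg-AD mean a mixture of cells would show less in this ratio.

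**Figure D2:**
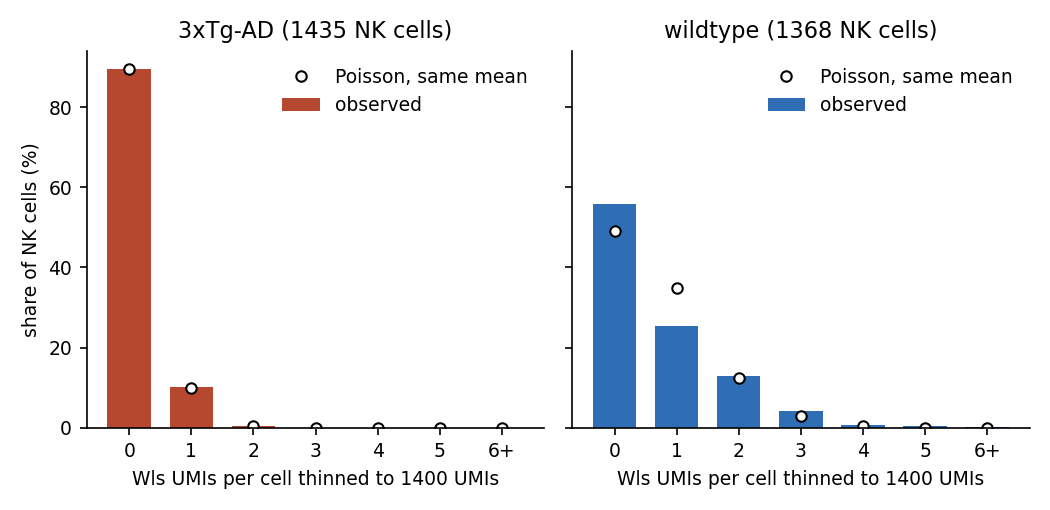
Share of thinned NK cells (%, linear axis) by number of Wls UMIs per cell, for the 3xTg-AD library (left) and the wildtype library (right). Bars are observed shares and open circles a Poisson distribution of the same mean: circles sit on the bars on the left, and on the right the bars at 0 and 3 UMIs are above their circles and the bar at 1 is below.

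NK cells were classed by Cd27, a receptor of less mature NK cells, and Klrg1, an inhibitory receptor of mature ones. No difference in Wls between these classes was resolved, and Cd27+ Klrg1- cells were few. The thinned ratio of Klrg1+ Cd27- over Cd27+ Klrg1- cells was 2.44 (0.789 to 12.2) in 3xTg-AD and 1.04 (0.761 to 1.45) in wildtype. At equal depth, 3 of 60 Cd27+ Klrg1- cells (5.0%, 1.04 to 13.9), 97 of 949 cells with neither transcript (10.2%, 8.37 to 12.3) and 50 of 418 Cd27- Klrg1+ cells (11.96%, 9.01 to 15.5) of the 3xTg-AD library had a Wls UMI. In the wildtype library these were 23 of 67 (34.3%, 23.2 to 46.9), 367 of 822 (44.6%, 41.2 to 48.1) and 212 of 477 (44.4%, 39.9 to 49.0). Within each library the intervals of the 3 classes overlap, and every 3xTg-AD share lies below every wildtype share. Cells with both transcripts were only 8 in the 3xTg-AD and 2 in the wildtype library.

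Levels from all UMIs of the same cells showed the same order. They were 50.6, 69.3 and 81.1 CPM in Cd27+ Klrg1-, double-negative and Cd27- Klrg1+ cells of the 3xTg-AD library, and 439, 487 and 481 CPM in those of the wildtype library. Klrg1+ Cd27- over Cd27+ Klrg1- cells gave a Wls ratio of 1.60 (0.840 to 3.44) in 3xTg-AD and 1.10 (0.881 to 1.38) in wildtype cells, so both intervals include 1. Over the 40 thinnings this ratio ranged from 0.615 to 6.75 in the 3xTg-AD library and from 0.796 to 1.79 in the wildtype library. The classes did differ in other maturation genes: Ltb, a lymphotoxin subunit of immature NK cells, had a ratio of 0.0607 (0.0271 to 0.127) in 3xTg-AD and 0.0304 (0.0122 to 0.0663) in wildtype cells. S1pr5, the receptor with which mature NK cells leave lymphoid organs, stood at 2.39 (1.54 to 3.90) in 3xTg-AD and at 2.92 (1.74 to 5.28) in wildtype cells. The library ratio of Wls was 0.115 (0.0534 to 0.221) in Cd27+ Klrg1-, 0.142 (0.122 to 0.165) in double-negative and 0.168 (0.137 to 0.206) in Cd27- Klrg1+ cells, with overlapping intervals.

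**Figure D3:**
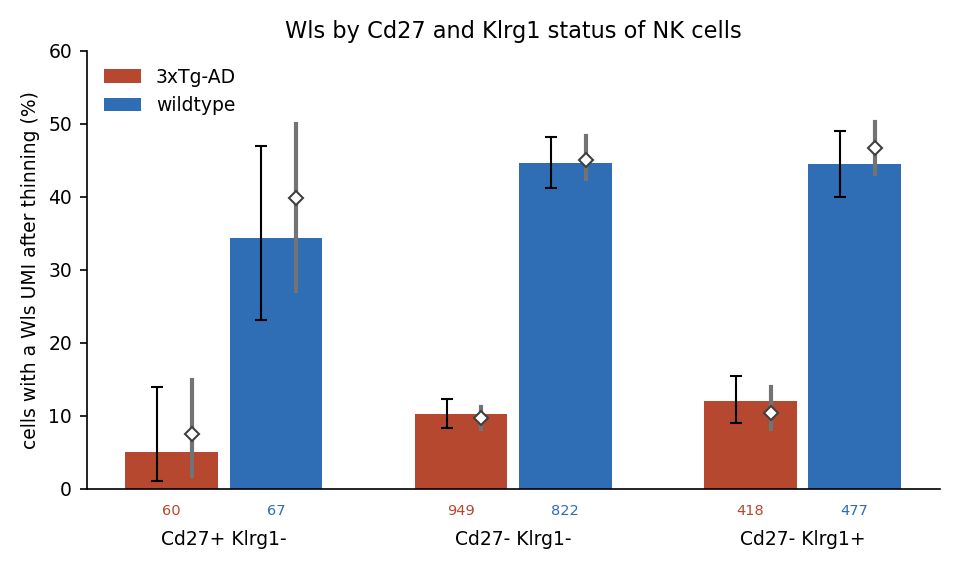
Share of NK cells (%, linear axis) with a Wls UMI after thinning to 1400 UMIs, by Cd27 and Klrg1 status, for the 3xTg-AD library (left bar of each pair) and the wildtype library, with the number of cells under each bar. Black error bars are exact 95% Clopper-Pearson intervals of the first thinning, and diamonds with grey lines are the median and range of 40 further thinnings. The 3xTg-AD shares lie between 5.0% and 11.96% and the wildtype shares between 34.3% and 44.6%.

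Klra1, which encodes the Ly49A receptor, went with somewhat more Wls in the wildtype library. There, 163 of 331 Klra1+ cells (49.2%, 43.7 to 54.8) had a Wls UMI, against 440 of 1037 Klra1- cells (42.4%, 39.4 to 45.5), and the Wls level had a ratio of 1.24 (1.07 to 1.43). The median ratio over 40 thinnings was 1.19, and the counting interval lay above 1 in 34 of them. In the 3xTg-AD library 11 of 126 Klra1+ cells (8.73%, 4.44 to 15.1) and 141 of 1309 Klra1- cells (10.8%, 9.14 to 12.6) had a Wls UMI, with a ratio of 0.931 (0.484 to 1.64), and the median ratio over 40 thinnings was 0.892. How UMIs divide among the closely similar Klra genes is uncertain.

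Klrc3, which encodes NKG2E, showed a smaller relation than 1 thinning gave. In the first thinning 91 of 157 Klrc3+ wildtype cells (58.0%, 49.8 to 65.8) had a Wls UMI, against 512 of 1211 Klrc3- cells (42.3%, 39.5 to 45.1), a ratio of levels of 1.60 (1.35 to 1.89). Over 40 thinnings the median shares were 49.2% and 44.8% and the median ratio 1.22 (range 1.05 to 1.34), with the counting interval above 1 in 19 of them, so the first draw lay outside the range of all others. With every UMI used and no thinning, the wildtype ratio was 1.24 (1.13 to 1.37). Only 32 cells of the 3xTg-AD library were Klrc3+, 5 of them with a Wls UMI (15.6%, 5.28 to 32.8), against 147 of 1403 Klrc3- cells (10.5%, 8.92 to 12.2), and the ratio over 40 thinnings ran from 0.374 to 2.74. Whether either relation differs between the libraries was not tested.

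Other receptors gave mixed values across the draws. Of wildtype cells with no UMI of any Ly49 gene, 33.3% (27.3 to 39.8) of 234 had a Wls UMI, against 46.3% (43.4 to 49.2) of the 1134 cells with one. From all UMIs of these cells the ratio of no Ly49 over Ly49 was 0.775 (0.686 to 0.874) in the wildtype library and 1.17 (0.838 to 1.59) in the 3xTg-AD library. Klra5, an inhibitory Ly49, had a median ratio of 1.37 over wildtype draws (0.990 to 1.70), with the interval above 1 in 19 of 40. Klrd1, which encodes the CD94 partner of NKG2 receptors, had a median of 1.12 over wildtype draws (1.01 to 1.22), with the interval above 1 in 14 of 40, and of 1.06 over 3xTg-AD draws (0.814 to 1.44). Klra4, which encodes the activating receptor Ly49D, had median ratios of 0.729 in 3xTg-AD (0.545 to 1.03) and 1.14 in wildtype cells (0.9999 to 1.24). Klrc1, encoding the inhibitory receptor NKG2A, had median ratios of 1.15 and 0.938, and Klrk1, encoding NKG2D, of 0.990 and 1.05, in 3xTg-AD and wildtype cells. Among transcription factors, Tbx21, which drives NK maturation, had medians of 1.26 (0.791 to 1.59) in 3xTg-AD and 0.975 (0.796 to 1.12) in wildtype cells, and Irf8 had 1.04 and 1.11, the wildtype interval lying above 1 in 16 of 40 draws. Id2 had medians of 1.13 and 1.12, Nfil3 of 1.17 and 1.16, Eomes of 1.04 and 0.929, Prdm1 of 0.788 and 0.977, Tcf7 of 1.09 and 0.863 and Tox of 1.09 and 0.854, in 3xTg-AD and wildtype cells. For each of these 8 factors except Irf8 and Id2, the interval was clear of 1 on one side in at most 8 of 40 draws in either library.

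**Figure D4:**
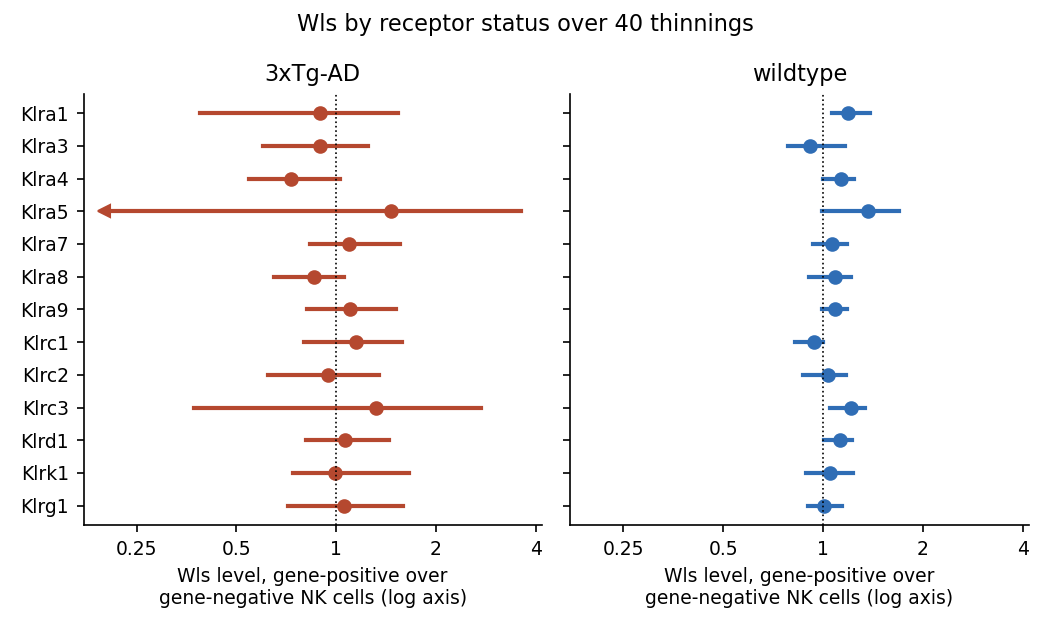
Ratio of the Wls level in gene-positive over gene-negative NK cells (log axis) for 13 receptor genes in the 3xTg-AD library (left) and the wildtype library (right), as median (points) and range (lines) of 40 thinnings. An arrowhead marks a range that goes below the axis. Wildtype medians lie between 0.911 for Klra3 and 1.37 for Klra5, and the 3xTg-AD ranges are wider.

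Genes that differed between Wls-positive and Wls-negative NK cells were few in the wildtype library and mostly hung on the draw. A Wls-negative cell had no Wls UMI left after thinning, and some had held one before. Of wildtype NK cells 64.1% had a Wls UMI without thinning and 44.1% after it, and of 3xTg-AD NK cells 19.6% and 10.6%. How far this mixing changed the ratios and counts was not tested. In the first thinning 603 positive and 765 negative wildtype cells were compared over 2812 genes with at least 100 UMIs. Past a fold of 1.5, 16 were higher and 15 lower in Wls-positive cells, 1.1% of genes, and 29 also had a counting interval clear of 1, 1.03% of genes. In the 3xTg-AD library 152 positive and 1283 negative cells were compared over 3056 genes, and 111 were higher and 163 lower by that fold, 8.97% of genes. Only 97 of those, 3.17% of genes, had an interval clear of 1, and a median of 23 UMIs per gene came from the positive cells. By comparison, Klrg1 status put 37 genes higher and 55 lower past both limits in 3xTg-AD cells. In wildtype cells it put 45 higher and 66 lower. Whatever the fold, 5.33% of genes had an interval clear of 1 by Wls status in 3xTg-AD and 8.00% in wildtype. By Klrg1 status these shares were 11.4% and 15.5%, by Klra8 7.04% and 7.50%, and by Klra3 7.33% and 6.58%. By Klrc1 status they were 6.64% and 7.72%, and by Klra1 3.93% and 8.64%. Across the 2700 genes measured in both libraries, 1 gene, Mapre2, a microtubule plus-end protein, passed both limits upward in both, and none downward.

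In further draws most of the genes with the widest first values lay nearer to 1. Of the 12 higher genes named in wildtype cells (Klrc3, Calhm2, Dhrs7, Mapre2, Pigx, Gmip, Mthfs, Ginm1, Sdha, Ddx18, Atp2b4 and Itgam), 0 kept an interval above 1 in at least 30 of 40 thinnings, and their median ratios were 1.04 to 1.38. Mapre2 had a median of 1.24 in both libraries, with intervals above 1 in 3 draws of the 3xTg-AD and 8 of the wildtype library. Ccl4, a chemokine of activated NK cells, had a first ratio of 0.636 and a median of 1.03 in wildtype cells. Of the 12 lower genes, 3 kept their intervals: BC018473 at a median of 0.586 (0.451 to 0.679), the sialyltransferase St6galnac2 at 0.533 (0.330 to 0.845) and the microtubule regulator Stmn1 at 0.672 (0.451 to 0.893). In the 3xTg-AD library their medians were 1.05, 1.16 and 1.02. No gene named here from the 3xTg-AD library kept its interval there, the 4 higher (Nr4a1, Thoc7, Zfand5 and Cs) having medians of 0.990 to 1.48 and the 5 lower (Magt1, Ly9, Mrpl22, Ppp1r10 and Eif4e) of 0.8003 to 0.969.

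The genes whose intervals stayed clear of 1 in at least 30 of 40 thinnings were named after their values were seen. In wildtype cells 11 were higher (0.405% of 2714 genes) and 20 lower (0.737%) with Wls. The higher ones included the cytotoxic genes Gzma and Prf1, the NK receptor Ncr1, the surface antigen Ly6c2 and the migration regulator Klf2. Gzma had a median of 20731 CPM in Wls-positive and 19757 CPM in Wls-negative wildtype cells, a ratio of 1.05 (range over draws 0.998 to 1.12). For Prf1 the levels were 1407 and 1241 CPM, and the ratio was 1.14 (1.05 to 1.28). Ly6c2 had 1263 and 1085 CPM, with a ratio of 1.16 (0.977 to 1.34). These differences are small, and abundant genes pass this count more easily because their counting error is small.

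Lower with Wls in wildtype cells were 13 ribosomal protein genes and Eef1a1, a translation elongation factor, with Rplp0 at 3198 CPM in Wls-positive and 3564 CPM in Wls-negative cells. Cd7, a surface receptor higher in immature NK cells, had 475 CPM in Wls-positive and 638 CPM in Wls-negative wildtype cells, a ratio of 0.743 (0.651 to 0.846) with the interval below 1 in 40 of 40 draws. In the 3xTg-AD library Cd7 had 638 and 631 CPM, a ratio of 1.002 (0.851 to 1.15). Among 3xTg-AD cells 3 genes were higher (0.103% of 2923 genes) and 3 lower (0.103%). Gzma, at 21815 and 20030 CPM in Wls-positive and Wls-negative cells, and Malat1 were higher in both libraries, and Gm42418, Rpl41 and Rps4x lower in both, while the immediate early factor Junb was higher only by the 3xTg-AD count, at 663 and 529 CPM. Gm42418 is a locus to which ribosomal RNA reads are often assigned. The depth before thinning had medians of 2773 UMIs in Wls-positive and 2837 in Wls-negative 3xTg-AD cells, and 2957 and 2993 in wildtype cells, so the status did not mark deeper cells.

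Lists of NK genes also hung on the draw. In the first thinning, among the 15 immature NK genes that reached 20 UMIs, 6 passed 1.5-fold upward and 2 downward in Wls-positive 3xTg-AD cells (median log2 ratio 0.27), where 11.7% of all 7448 such genes were higher and 15.7% lower. In wildtype cells 0 of 14 were higher and 2 lower (-0.27), where 5.99% of 7279 genes were higher and 6.21% lower. Over the 40 thinnings the list had a median log2 ratio of -0.06 in 3xTg-AD (range -0.57 to 0.27) and -0.14 in wildtype (-0.36 to 0.14), so the first draw's opposite directions did not recur in these medians. Immediate early genes had a first median of 0.49 in 3xTg-AD and -0.18 in wildtype cells, and over the 40 thinnings 0.12 (-0.13 to 0.38) and 0.00 (-0.12 to 0.23).

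Interferon response genes were lower with Wls in the wildtype library in every one of the 40 draws, with a median log2 ratio of -0.32 (-0.48 to -0.03). Past 1.5-fold, a median of 5 of 18 genes were lower and 0 higher. Over all genes with at least 20 UMIs, the wildtype medians were 482 lower and 456 higher of 7288.5. In the first thinning those shares were 6.21% and 5.99%, and the list's median log2 ratio was only -0.07. The median in 3xTg-AD cells was 0.16 (-0.41 to 0.49) over 9 genes. Terminal NK genes were slightly higher in every wildtype draw, at 0.09 (0.01 to 0.19) over 17 genes, against 0.03 (-0.09 to 0.21) in 3xTg-AD draws. Ly49 genes were at -0.05 (-0.38 to 0.33) in 3xTg-AD and 0.14 (-0.07 to 0.25) in wildtype draws, and tissue residency and ILC1 genes at -0.08 (-0.64 to 0.27) and -0.14 (-0.51 to 0.30). All genes with at least 20 UMIs had a median of 0.01 in both libraries. The draws reuse the same cells and are not replicates, and the difference between libraries was not tested for any list.

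**Figure D5:**
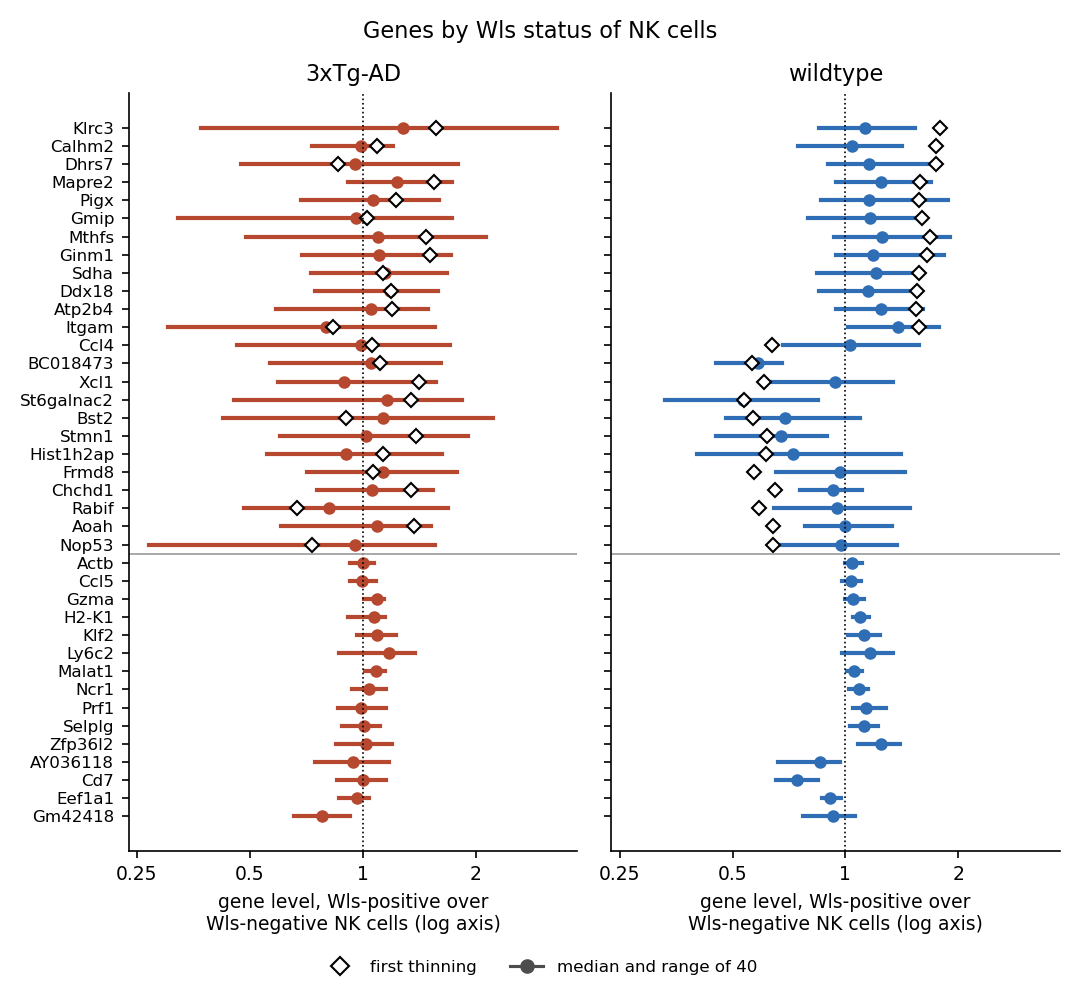
Ratio of gene levels in Wls-positive over Wls-negative NK cells (log axis) in the 3xTg-AD library (left) and the wildtype library (right). Above the grey line are the 12 higher and 12 lower genes named from the first wildtype thinning (diamonds), and below it further genes other than ribosomal protein genes whose wildtype intervals stayed clear of 1 in at least 30 of 40 thinnings. Points and lines are the median and range of the 40 thinnings. In the wildtype panel most points above the line lie nearer to 1 than their diamonds, and BC018473, St6galnac2 and Stmn1 are the 3 of these genes that kept their interval.

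Cells of the ILC1-like rule, named for type 1 innate lymphoid cells, held less Wls than NK cells in the wildtype library. The rule asks for at least 3 summed UMIs of the integrin Itga1, the chemokine receptor Cxcr6, Inpp4b, Gzmc and Tnfsf10, and took 72 cells in the 3xTg-AD and 93 in the wildtype library. Their NK markers summed to 5669 and 7405 CPM, against 28448 and 27186 CPM in NK cells, in 3xTg-AD and wildtype. Wls was at 56.0 CPM (35.5 to 84.0) in 3xTg-AD and 230 CPM (191 to 275) in wildtype ILC1-like cells, a ratio of 0.243 (0.149 to 0.382). Over NK cells of the same library, ILC1-like cells had a ratio of 0.775 (0.484 to 1.18) in 3xTg-AD and 0.476 (0.393 to 0.571) in wildtype. At equal depth, 5 of 72 3xTg-AD (6.94%, 2.29 to 15.5) and 28 of 90 wildtype ILC1-like cells (31.1%, 21.8 to 41.7) had a Wls UMI. Without thinning the shares were 27.8% in 3xTg-AD and 54.8% in wildtype.

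By the number of UMIs of the rule's own genes, the wildtype level was 495 CPM with 0, 426 with 1, 323 with 2 and 203 with 3 such UMIs, then 340 with 4 and 220 with at least 5. The cells just inside the limit (3 UMIs, 21 cells) and just outside it (2 UMIs, 37 cells) thus had 203 (122 to 317) and 323 (236 to 430) CPM. Levels in 3xTg-AD cells were 72.7, 63.0, 81.5, 45.6, 44.0 and 66.3 CPM over the same steps, with no order. ILC1-like cells were deeper, at median depths of 5555 UMIs in 3xTg-AD and 5312 in wildtype. Split by Tmem176a or Tmem176b, 2 genes of tissue innate lymphoid cells, positive and negative ILC1-like cells had 86.9 and 45.6 CPM in the 3xTg-AD library (ratio 1.91, 0.728 to 4.73) and 229 and 230 CPM in the wildtype library (0.996, 0.619 to 1.55).

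Other NK states were small, apart from cells high in immediate early genes. States were set after thinning, and ratios are from all UMIs of those cells unless equal depth is named. Dividing wildtype cells, marked by genes such as Mki67 and Top2a, numbered 10, with 25 Wls UMIs and a ratio over other cells of 0.456 (0.294 to 0.675), and the 13 dividing 3xTg-AD cells held 7 Wls UMIs and a ratio of 0.663 (0.264 to 1.38). They were deep, at medians of 9852 UMIs in 3xTg-AD and 10942 in wildtype. At equal depth the ratios were 1.40 (0.168 to 5.15) in 3xTg-AD and 0.14 (0.00354 to 0.782) in wildtype, on 2 and 1 Wls UMIs. Interferon-high over other cells gave 1.79 (0.714 to 3.73) in 18 3xTg-AD cells and 0.863 (0.681 to 1.08) in 62 wildtype cells. The 18 cells held 7 Wls UMIs. Cells high in immediate early genes gave 1.19 (0.866 to 1.61) in 189 3xTg-AD cells and 1.03 (0.875 to 1.22) in 102 wildtype cells. At equal depth these were 1.12 (0.689 to 1.76) and 0.817 (0.619 to 1.06). The library ratio of Wls was 0.305 (0.119 to 0.657) within interferon-high cells and 0.168 (0.120 to 0.231) within immediate-early-high cells. At equal depth it was 0.363 (0.0940 to 1.01) and 0.207 (0.122 to 0.340).

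Free RNA sets a limit on low shares, and no class known to lack Wls was present in number. Barcodes past the microglia gate, led by C1qa, had Wls in 32.1% of 28 in the 3xTg-AD library (median 3371 UMIs) and 37.5% of 8 in the wildtype library (3206 UMIs), against 19.6% and 64.1% of NK cells at 2783 and 2866 UMIs. The 3xTg-AD NK share was thus not above that of its microglia-gated barcodes (15.9 to 52.4), which were deeper, so this comparison does not set it apart from background. Whether the microglia-gated cells express Wls themselves was not tested. These barcodes also held NK transcripts, with Gzma at 0.342 of its NK level in 3xTg-AD and 0.330 in wildtype. RNA from NK cells at that share would carry 24.7 CPM (22.9 to 26.6) of Wls in 3xTg-AD and 159 CPM (137 to 185) in wildtype. The levels seen were 96.2 CPM (46.2 to 177) and 267 CPM (107 to 550). A Gzma UMI was in only 11 of the 28 and 4 of the 8 barcodes, so this share is an average over unlike barcodes. Whether it came from free RNA or from barcodes that also held an NK cell was not tested.

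The closest to a class without Wls were barcodes left out for few genes. In the wildtype library there were 45, at a median of 1731 UMIs, with 77.0% of their UMIs from haemoglobin genes. Of these 0 had Wls among 108467 UMIs, which allows a share of up to 7.87% and a level of up to 34.0 CPM. Their Gzma stood at 0.0183 of its NK level, which would carry 8.85 CPM of Wls, under 1 UMI in all of them (0.960). The 10 such barcodes of the 3xTg-AD library held 7432 UMIs and 0 Wls. This allows up to 496 CPM and so sets no useful limit there. Small kept classes of the wildtype library did hold Wls. It was in 2 of 4 barcodes past the erythroid gate (188 CPM, 51.2 to 481) and 3 of 5 past the brain cell gate (381 CPM, 104 to 975). It was also in 9 of 24 past no gate (399 CPM, 213 to 683). In the 3xTg-AD library, 7 barcodes past no gate, 2 past the myeloid gate and 1 past several gates held 0 Wls UMIs. C1q transcripts were rare in NK cells, but barcodes with at least 5 microglial UMIs had been left out of that class. The whole list of 10 microglia and macrophage genes summed to 96.7 CPM in 3xTg-AD and 60.2 CPM in wildtype NK cells. A UMI of that list was in 24.3% and 16.7% of them. The C1q genes of NK cells stood at 0.000354 of their microglial level in 3xTg-AD and at 5.2e-05 in wildtype, which carries at most 0.0922 and 0.0672 CPM of Wls. In T-gated barcodes the lowest NK gene stood at 0.175 of its NK level in 3xTg-AD and 0.0777 in wildtype, which would carry 12.7 and 37.6 CPM of Wls, where 53.6 (24.5 to 102) and 220 (151 to 311) CPM were seen. In ILC1-like cells the same limit was 5.13 CPM in 3xTg-AD and 99.4 CPM in wildtype, below the 56.0 and 230 CPM seen. These values exceeded only the limit set by the lowest of the NK genes Ncr1, Gzma, Prf1 and Klre1. Relative to NK cells, Ncr1 and Klre1 stood at 0.487 and 0.451 in 3xTg-AD T-gated barcodes, against 0.742 (0.336 to 1.43) for Wls. In wildtype T-gated barcodes they stood at 0.268 and 0.448, against 0.455 (0.311 to 0.644) for Wls. In ILC1-like cells they stood at 0.561 and 0.692 in 3xTg-AD and 0.459 and 0.647 in wildtype. Of T-gated barcodes, 94.3% in 3xTg-AD and 66.7% in wildtype had an Ncr1 UMI, and only 42.9% and 48.5% a Cd3e UMI. The T gate was thus not shown to hold T cells alone. Gzma was in 44.4% of ILC1-like barcodes in 3xTg-AD and 58.1% in wildtype, so their limit also averages over unlike barcodes. Whether Wls in T-gated or ILC1-like barcodes came from free NK RNA was not tested.

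The rest of the Wnt pathway showed no shift of that size between the libraries. Of 107 listed Wnt genes besides Wls, 48 had at least 20 UMIs in NK cells. Of these, 3 passed 1.5-fold upward and 4 downward in 3xTg-AD cells, with a median log2 ratio of 0.02. Of all 9828 genes with at least 20 UMIs, 6.43% were higher and 5.86% lower, with a median of 0.05. None of the 19 Wnt ligands reached 20 UMIs and 14 of them, Wnt3a and Wnt5a among them, were at 0 in both. Porcn was at 0 in both libraries as well, where 3 counts would be 0.647 and 0.649 CPM in 3xTg-AD and wildtype.

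Genes for carrying and recycling Wls were present and near a ratio of 1. Of 18 measured, 0 were past 1.5-fold either way. Vps35 had 38.0 CPM in 3xTg-AD and 33.3 CPM in wildtype NK cells (1.14, 0.912 to 1.42). Snx3, the sorting nexin that takes Wls into retromer, had 458 and 372 CPM (1.23, 1.16 to 1.32), and Tmed5, a cargo receptor of the early secretory pathway, 182 and 239 CPM (0.760, 0.694 to 0.832). Among receptors, Lrp6 had 33.7 and 33.1 CPM and Fzd5 9.06 and 7.58 CPM, in 3xTg-AD and wildtype NK cells.

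On the receiving side, beta-catenin (Ctnnb1) had 63.6 CPM in 3xTg-AD and 58.2 CPM in wildtype NK cells (1.09, 0.924 to 1.29). Its DNA-binding partners Tcf7 and Lef1 had ratios of 0.982 (0.764 to 1.26) and 1.05 (0.862 to 1.28). The members past 1.5-fold with an interval clear of 1 were Apc, a scaffold of beta-catenin destruction, at 49.4 and 26.8 CPM (1.84, 1.47 to 2.31), Gsk3a, a kinase of the same complex, at 23.9 and 39.0 CPM (0.615, 0.481 to 0.783), Myc, a growth regulator and Wnt target in other tissues, at 29.99 and 57.8 CPM (0.519, 0.420 to 0.639), and Tle1, a corepressor, at 1.51 and 3.90 CPM (0.388, 0.137 to 0.973). Within libraries, no Wnt gene with at least 20 UMIs had an interval clear of 1 between Wls-positive and Wls-negative 3xTg-AD cells (0 of 37), and 1 of 38 had in wildtype cells.

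Neighbours of Wls on chromosome 3 gave little to compare. Within 1 Mb, Depdc1a was the only other gene with UMIs in NK cells, 14 in 3xTg-AD and 12 in wildtype (ratio 1.16, 0.499 to 2.75), while Rpe65 and Gm20752 were at 0 in both. The nearest well-counted gene, Srsf11, a splicing factor whose gene ends 1803033 bases away, had 180 and 171 CPM (1.05, 0.954 to 1.16) and was chosen after its values were seen.

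No gene tracked Wls closely over cells. The 5 most alike in both libraries were Btg1, Mapre2, Id2, 2310011J03Rik and Tmem59, with a lower Pearson correlation of 0.0509 to 0.0668 over 1435 3xTg-AD and 1368 wildtype cells, which in counts this sparse is no finding. Over the 10 groups formed by 5 classes (4 of Cd27 and Klrg1 status and ILC1-like) in 2 libraries, Gm35082 (0.971), Ccl27a (0.954), Taf10 (0.943), Grb2 (0.928) and H2-Q4 (0.921) were most alike. These points share their libraries, and each of the 5 was lower in the 3xTg-AD NK cells. Within libraries, Ccl27a, which encodes a chemokine of skin, had 0.853 over the 5 groups in 3xTg-AD and 0.775 in wildtype. Its levels were 1.73 CPM in 3xTg-AD and 21.2 CPM in wildtype NK cells. The first lies below the 10 CPM added before the log, so that correlation rests on few UMIs. Grb2, at 112 and 152 CPM, had 0.733 and 0.951, and Taf10, at 246 and 414 CPM, had -0.214 and 0.827. Gm35082, a predicted gene, had 0.216 and 26.6 CPM, and H2-Q4, a class I histocompatibility gene, had within-library values of 0.630 and -0.580 that differ in sign.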

How the data were processed

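NK cells had been sorted by flow cytometry and made into libraries with the 10x Genomics 5′ kit, per the labels' protocols. The authors deposited counts, the UMIs of each gene in each barcode, with no normalization. Cell Ranger 3.1.0, STAR and mm10 are named in the submitters' processing notes, and the matrices carry version 3.0.2, per the file headers. Neither the annotation nor whether strand was used is stated in those sources.

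Barcodes with fewer than 300 genes or over 10% mitochondrial UMIs and Scrublet doublets (scanpy 1.11.5, Python 3.11.15, numpy 2.4.6, scipy 1.17.1) were left out: 10, 0 and 22 in 3xTg-AD, and 45, 2 and 13 in wildtype. Classes came from summed marker UMIs, and levels (CPM) are UMIs summed over cells and scaled to a total of 1000000. Barcodes of another type had at least 3 T cell UMIs, 5 microglial UMIs or 10 UMIs of the other lists. Shares used cells thinned to 1400 UMIs. Intervals are exact at 95% (Poisson, Clopper-Pearson, conditional binomial). With 1 library per group no test was made. Ratios, intervals and thinning were tested on simulated data. Wls, the lists and the rule for named genes were chosen with earlier results of these data known. The rule takes, past 1.5-fold and 100 UMIs, the 12 genes in each direction whose wildtype interval lies farthest from 1 and 5 in 3xTg-AD. Of these, 1 gene is not reported here. The 40 further thinnings and a limit of 1 UMI for ILC1-like cells were added after seeing the data. Alternatives covered doublets, gates, clusters, thinning depth and draws, filters and scaling.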

Additional observations from a re-analysis of the deposited data

Results flagged for a closer look

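Klra4 and Xcl1 were singled out because their counting intervals lay on opposite sides of 1 in the 2 libraries in the first thinning, and neither difference was tested. The Wls level in Klra4+ over Klra4- NK cells was 0.688 (0.482 to 0.971) in 3xTg-AD and 1.19 (1.05 to 1.36) in wildtype. Over 40 thinnings its medians were 0.729 and 1.14, with the interval below 1 in 13 draws of the 3xTg-AD library and above 1 in 19 of the wildtype library.

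Xcl1, a chemokine that NK cells release to draw dendritic cells, had a ratio in Wls-positive over Wls-negative NK cells of 1.41 (1.06 to 1.85) in 3xTg-AD and 0.608 (0.488 to 0.754) in wildtype. Over 40 thinnings the medians were 0.889 and 0.941, so the opposite directions did not recur in the medians.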

How the results depend on the processing

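Of 185 values under 24 alternative settings, 146 kept their place, 39 moved and 0 reversed. Ratios whose reported interval includes 1 could cross 1 without counting as reversed, so the 0 does not show that their direction held. The 3xTg-AD Klra1 ratio of 0.931 reached 1.63. The wildtype ratio of Klrg1+ Cd27- over Cd27+ Klrg1- cells, 1.04, fell to 0.792. Ratios whose reported interval was clear of 1 stayed on their side of it. Shares and counts of genes have no side of 1 to cross. The NK ratio of 3xTg-AD over wildtype stayed between 0.144 and 0.151 in all 15 alternatives run for it, scaling included. The thinned share was 7.68% in 3xTg-AD and 37.0% in wildtype at 1000 UMIs, and 13.0% and 55.3% at 2000, as more depth shows more Wls. The 3xTg-AD share was also 9.02% with doublets kept, 8.65% in NK cells from Leiden clusters and 8.88% with ILC1-like cells taken from 2 UMIs. The wildtype Klrc3 ratio of 1.60 was 1.41 with the status taken before thinning, 1.18 with doublets kept, 1.19 by clusters, 1.248 with gates at 2 times their UMIs, 1.247, 1.17 and 1.18 with ILC1-like limits of 1, 2 and 5 UMIs, 1.12 and 1.15 thinned to 1000 and 2000, 1.22 with another seed, 1.24 with no thinning and 1.22 as the median of 40 draws. The 3xTg-AD Klrc3 ratio of 1.43 ranged from 0.717 to 2.0, and the 3xTg-AD ratio of Klrg1+ Cd27- over Cd27+ Klrg1- cells, 2.44, from 0.830 with doublets kept to 3.58, all with intervals that include 1. The wildtype Klra1 ratio ranged from 1.08 to 1.36, with an interval above 1 in 6 of 12 alternatives. The wildtype ratio of ILC1-like over NK cells was 0.631 by clusters and 0.635 from 1 UMI. Counts of genes between Wls-positive and Wls-negative cells followed the minimum: 51, 904 and 5961 in 3xTg-AD and 4, 202 and 4131 in wildtype at 200, 50 and no UMIs. They were 39 in 3xTg-AD and 0 in wildtype at 2-fold, and 1917 and 60 with positive cells taken from 2 UMIs. The wildtype count was also 48 by clusters, 47 with ILC1-like cells from 2 UMIs and 58 thinned to 2000. Between libraries the count was 230, 708 and 4269 of all genes and 3, 4 and 23 of Wnt genes at 200, 50 and no UMIs. Apart from the depth and minimum settings, the cause was not tested. Thinned 3xTg-AD relations rest on 158 Wls UMIs. No paired analysis was possible because each group has 1 library, and for the same reason none could be left out.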
